A study of Mus musculus with 7 samples.

Results

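The Src family tyrosine kinases of T cells and their regulators were followed at the RNA level in naive CD8 T cells in which the family member Lck had been switched off. The set held 9 genes, taken by gene name from the 34797 gene names on the array: the kinases Lck, Fyn, Fgr, Lyn, Yes1 and Src, and the regulators Csk, Ptprc and Pag1. The array carried 1 probe for each of them, a 60-base oligonucleotide printed as 1 spot, so that no gene of the set had a second probe to set beside the first. The question of the comparison was whether the other Src kinases, or the enzymes and the adaptor that regulate them, shift when Lck is off.

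In T cells, Lck and Fyn phosphorylate the chains that signal for the T cell receptor, and Lck is carried to the receptor by the coreceptors CD4 and CD8. The kinase Csk silences Src kinases by phosphorylating a tyrosine in their tail, the phosphatase CD45 (gene Ptprc) removes that phosphate, and the membrane adaptor PAG (gene Pag1) brings Csk to the membrane where the kinases lie. Fgr and Lyn are best known from myeloid cells and B cells, while Src and Yes1 are expressed in many tissues.

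The Lck-off group held 4 samples, from OT-1 heterozygous, Rag-/-, Lck-/- mice whose knocked-in Lck, which depends on doxycycline, had been shut down by 7 days without the drug in the diet. The WT group held 3 samples from OT-1 heterozygous, Rag-/- mice. OT-1 is a transgenic T cell receptor for an ovalbumin peptide, and without Rag no other receptor is made. The sources used here do not give the promoter that drives the knocked-in Lck, the part of Lck that was disrupted, the age of the mice, the diet of the WT mice or whether each sample came from 1 animal. Genotype and loss of Lck differed together and cannot be told apart, nor can any difference in diet. Where samples did not come from separate animals, p-values measure only the spread between these samples, which may be technical.

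All samples were lymph node T cells sorted for CD8b and low CD44, unstimulated, with 1 array each. The share of probes well above background ranged over the arrays between 42.5% and 48.6%, with a 75th percentile of 208 to 243 intensity units, and there were 0 saturated spots. All 12 of 12 CD8 T cell markers were well above background on all arrays, with a summed linear level of 1604 to 1678 times the 75th percentile in Lck-off and 1677 to 1745 times in WT. Of the markers of other cells, 5 of 11 for B cells (Ms4a1 and Pax5 among them), 2 of 19 for macrophages, monocytes and neutrophils, and 2 of 12 for dendritic cells were well above background on 0 of 7 arrays. Well above background on all arrays were 3 of these B cell markers (Cd79b, Cd22 and Cd79a), 7 of the myeloid markers and 4 of the dendritic cell markers. Cd79b averaged 3.62 in Lck-off and 3.70 in WT. Levels are log2 intensities relative to the 75th percentile of the array, ± is the SD over 4 Lck-off or 3 WT arrays, and a difference is Lck-off minus WT on that log2 scale. A gene is said to have risen or fallen where limma, fitted to all probes that were measured, gave an adjusted p under 0.05. Among the measured markers of these cells, NK cells and CD4 and regulatory T cells, 1 was called, the B cell gene Bank1, higher in Lck-off. Bank1 was well above background on 4 Lck-off arrays but on only 1 WT array. It thus counted as measured through its Lck-off arrays, so its call is no independent support and no size is given. Of the 7 measured dendritic cell markers, 0 were called by limma (2 at an unadjusted p under 0.05) and 6 had a positive difference, with a median of 1.07. H2-Ab1, an MHC class II gene among them, read 0.96, 2.25, 0.81 and 0.02 in Lck-off, against -0.86, 0.64 and -0.93 in WT, overlapping, with Lck-off replicate 2 the highest. The part of these markers in the results was not tested. The levels of different probes are not comparable, and fewer cells of a type cannot be told apart from less RNA per cell.

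Of the 9 genes, 6 were measured and 3 were well above background on 0 of 7 arrays. Of the 6 measured genes, Fgr fell and Pag1 rose in Lck-off cells, while Lck, Fyn, Csk and Ptprc did not pass the test. Over all 25578 probes measured, 7.33% were called, 3.46% higher and 3.87% lower in Lck-off. The median size of the difference was 0.24 over the 6 genes and 0.14 over all probes.

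**Figure D1:**
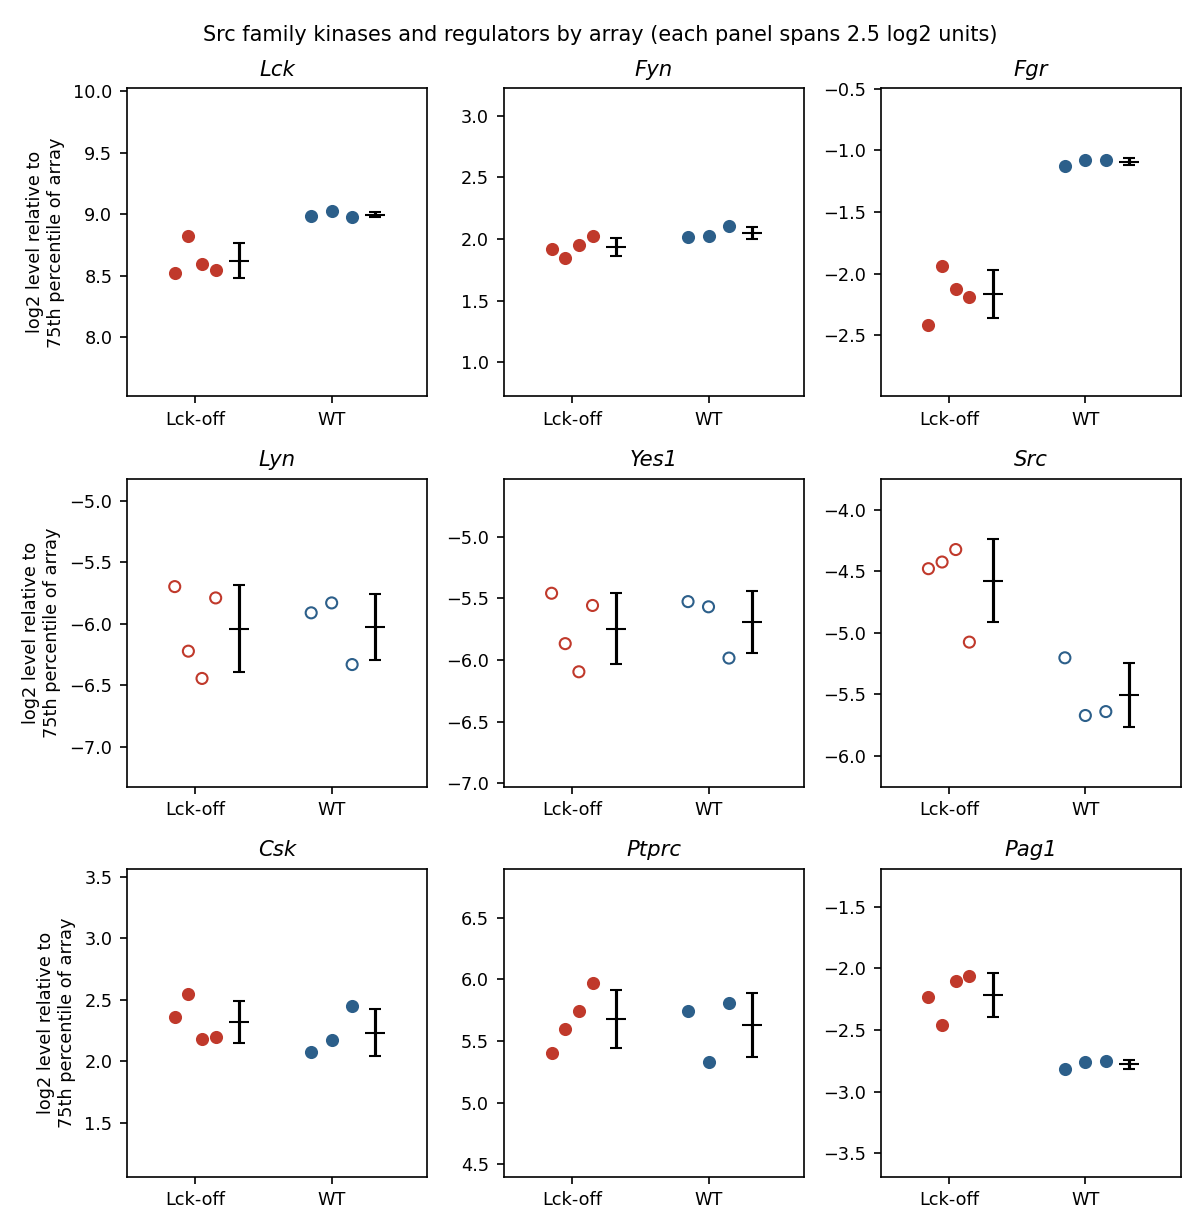
Levels of the 9 genes on each array, as log2 intensity relative to the 75th percentile of the array, with Lck-off arrays in red (n = 4) and WT arrays in blue (n = 3). The bar beside each group gives its mean ± SD, every panel spans the same range, and open circles mark probes not well above background on any array. Among the measured genes, Lck, Fgr and Pag1 separate the groups without overlap, as do 20.8% of all probes measured. Fyn, Csk and Ptprc overlap.

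Lck is the dominant Src kinase of T cells and the kinase removed by design. Its probe lay on the minus strand at chr4:129225614-129225673 (mm9), starting at base 2085 of the transcript, close to its 3′ end. The last 30 bases of the probe are shown because they place it at the polyadenylation signal, given in capitals.
Lck: tgcctagcacacaccaggagctcAATAAAa

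The probe read 8.52, 8.83, 8.60 and 8.55 on the 4 Lck-off arrays, against 8.99, 9.02 and 8.98 on the 3 WT arrays. Every Lck-off array lay below every WT array, with Lck-off replicate 2 the nearest to WT. Of all probes measured, 20.8% had groups that did not overlap. The Lck-off mean was 8.62, with an SD of 0.14 in Lck-off and 0.02 in WT, and corresponds to 77.2% of the WT level (95% confidence interval 66.4% to 89.8%). The difference of -0.37 (SE 0.09) was not called (adjusted p = 0.0585 by limma), and 2 of 35 splits of the arrays gave one as large (exact permutation, two-sided, p = 0.0571). With 1 probe per gene name in the limma fit the same difference was called, at an adjusted p = 0.0493, and without Lck-off replicate 2 it was -0.44 (adjusted p = 0.0203). Lck differed by -0.27 on slide row 1 and by -0.47 on slide row 2. Since it is not given whether the disrupted gene still makes this stretch of RNA, or whether the knocked-in copy carries it, the reading does not test the labels if the alteration lies elsewhere in the gene.

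Fyn is the other Src kinase that T cells rely on, and it acts on many of the same substrates as Lck. Its probe lay at chr10:39284572-39284631 on the plus strand. It read 1.92, 1.84, 1.95 and 2.02 in Lck-off, against 2.01, 2.02 and 2.10 in WT. Lck-off replicate 4 reached the WT range and the other 3 Lck-off arrays lay below it. The difference of -0.11 (SE 0.07, 95% confidence interval -0.29 to 0.06) did not pass the test (adjusted p = 0.477 by limma; p = 0.0857 by exact permutation, two-sided). The interval puts Fyn RNA in Lck-off between 81.9% and 104% of the WT level. Fyn was also among the steadier probes: its pooled SD within groups was 0.06, against a median of 0.16 over all probes, and 6.45% of probes had a smaller one.

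Fgr, a Src kinase described mainly in myeloid cells, fell the most of the measured genes. Its probe lay on the plus strand at chr4:132557522-132557581, starting at base 3066 of the transcript. The last 30 bases of the probe show which stretch of the Fgr transcript was read.
Fgr: tctcacctctcctgtcaggaagtgtttatt

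The raw processed intensities were 41.4, 55.2, 55.8 and 50.9 in Lck-off, against 95.4, 99.5 and 111 in WT. On the log2 scale relative to the array these were -2.42, -1.94, -2.12 and -2.19 in Lck-off, against -1.12, -1.08 and -1.07 in WT. The groups did not overlap, as was so for 20.8% of all probes measured, and the gap between them was wider than the range within either; Lck-off replicate 1 was the lowest array. Fgr averaged -2.17 ± 0.20 in Lck-off and -1.09 ± 0.03 in WT, which is 47.5% of the WT level (95% confidence interval 39.3% to 57.2%). The difference was -1.08 (SE 0.12, adjusted p = 0.00238 by limma), and no other split of the arrays gave one as large (exact permutation, two-sided, p = 0.0286, the smallest that 35 splits can give). Of all probes measured, 1.16% fell by at least as much in value. The call held in each of the 7 repeats without 1 array (adjusted p between 0.00337 and 0.0151), and Fgr differed by -0.96 on row 1 of the slide and by -1.20 on row 2. The size depended on how background was handled: it was -0.59 with normexp correction and -0.60 in the authors' deposited value table, both still called.

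Fgr was also set against the T cell kinases measured on the same arrays. Taken within each array, Fgr changed by -0.96 relative to Fyn and by -0.70 relative to Lck, with no overlap between the groups in either case (exact permutation, two-sided, p = 0.0286 each). Lck changed by -0.26 relative to Fyn, with overlapping groups (exact permutation, two-sided, p = 0.114). These are 3 of 7 pairs compared, chosen after values were seen. The adjusted p over the 7 pairs was 0.05 for each of the first 2 comparisons and 0.133 for the third (exact permutation with Benjamini-Hochberg adjustment), so none was under 0.05. The sizes depended on background handling: relative to Fyn, Fgr changed by -0.50 both with normexp correction and in the authors' deposited value table, and relative to Lck by -0.23 in each.

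Because Fgr is expressed by myeloid cells, the markers of those cells were set beside it. Of 19 markers of macrophages, monocytes and neutrophils, 10 were measured, 0 were called by limma (4 at an unadjusted p under 0.05), and all 10 differences were positive, with a median of 0.62. These include C1qa (1.38) and C1qc (1.75), each well above background on 4 Lck-off arrays but on only 1 WT array. Both thus counted as measured through their Lck-off arrays, and their sizes are uncertain. Their summed level was 242 to 282 times the 75th percentile in Lck-off and 218 to 268 times in WT, nearly all of it from the probes of Csf3r and Itgam. Without these 2, a sum formed after the values were seen, the range was 6.67 to 9.34 times in Lck-off and 4.76 to 7.67 times in WT, and the ranges overlapped. The difference of Fgr was negative, and the part of myeloid cells in it was not tested. The adaptor gene Tyrobp, one of the markers, read -0.83, 0.54, -0.94 and -1.35 in Lck-off, against -1.38, -0.86 and -1.67 in WT, with Lck-off replicate 2 the highest. Among the Lck-off arrays, Fgr was highest in replicate 2 as well, as were Lck and Csk but not Fyn, Ptprc or Pag1. In WT, Tyrobp was highest in replicate 2, where Fgr read -1.08, against -1.12 and -1.07 in replicates 1 and 3. Whether Fgr and Tyrobp vary together was not tested.

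Fgr and Lck lie on the same chromosome, with their probes 3.33 Mb apart. Within 10 Mb of the Lck probe, leaving out the genes of the set, 58 of 315 genes were called, 22 higher and 36 lower. This is 18.4%, against 73 of 829 genes (8.81%) on the rest of chromosome 4. Of the 315 genes near Lck, 9 had a more negative difference than Fgr, and 8 of these were called. The count near Lck was 48, 46, 36 and 38 without Lck-off replicate 1, 2, 3 and 4. It was 36, 32 and 33 without WT replicate 1, 2 and 3. The probes called over the whole array fell as well. They numbered 1874 with all arrays and 1678, 1504, 1187 and 1178 without Lck-off replicate 1, 2, 3 and 4. Without WT replicate 1, 2 and 3 they numbered 1295, 1133 and 1157. The count near Lck was 29 with median scaling, 18 with no filter on dim probes and 9 with a replicate block. On slide rows 1 and 2 alone it was 3 and 1. In the same settings, the probes called over the whole array numbered 1086, 712, 366, 89 and 10. The Lck-off mice carry an altered Lck gene and the WT mice do not, so that, for Fgr, nearness to that gene and loss of Lck cannot be told apart.

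**Figure D2:**
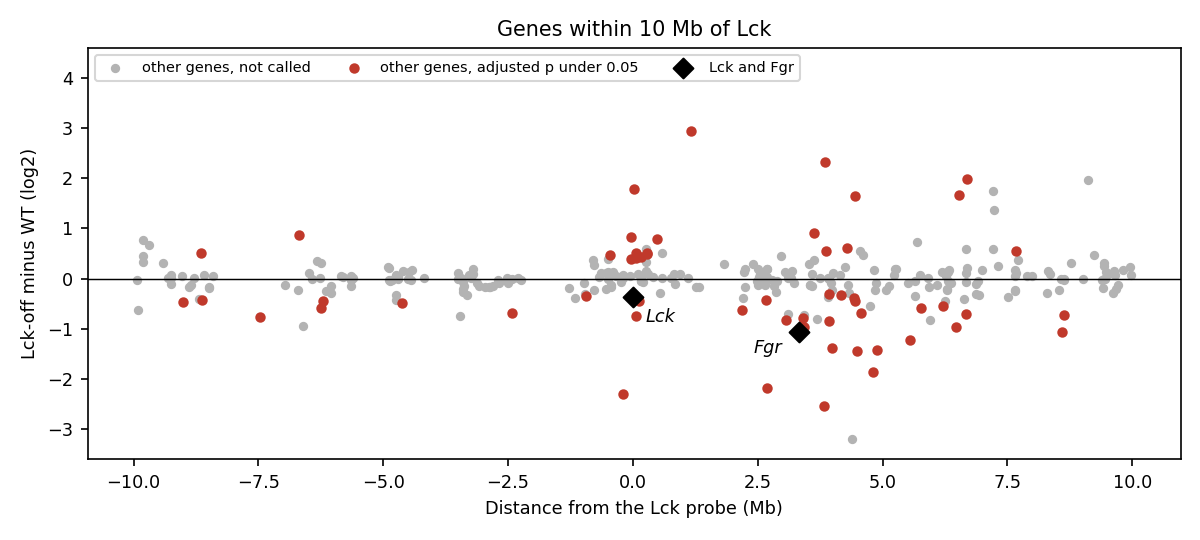
Difference between Lck-off and WT (log2, vertical) against distance from the Lck probe (Mb, horizontal) for the 315 measured genes within 10 Mb, 1 point per gene. Red points are the 58 genes with an adjusted p under 0.05 and black diamonds are Lck and Fgr. Of the called genes, 22 lie above 0 and 36 below it.

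The promoters of Lck and Fgr, both on chromosome 4, were read from RefSeq (GRCm38.p6), in windows of 250 bases before the annotated start, to show the sequence upstream of each. Lck has a distal and a proximal promoter. Each of the 3 windows below holds 1 copy of GGAAGT, a core bound by ETS factors, in capitals, counted on both strands. The motif is not particular to them: it occurs in 5 of 10 windows found for 7 genes of the set (Lyn and Pag1 are not listed), and in 19.7% of 32851 windows of all genes.
Lck, distal, chr4:129573642-129573891, minus strand: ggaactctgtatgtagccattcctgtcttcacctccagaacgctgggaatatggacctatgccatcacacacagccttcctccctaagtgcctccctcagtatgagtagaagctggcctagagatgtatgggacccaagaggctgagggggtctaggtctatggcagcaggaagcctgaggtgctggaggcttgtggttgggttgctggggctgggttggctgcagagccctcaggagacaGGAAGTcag
Lck, proximal, chr4:129558373-129558622, minus strand: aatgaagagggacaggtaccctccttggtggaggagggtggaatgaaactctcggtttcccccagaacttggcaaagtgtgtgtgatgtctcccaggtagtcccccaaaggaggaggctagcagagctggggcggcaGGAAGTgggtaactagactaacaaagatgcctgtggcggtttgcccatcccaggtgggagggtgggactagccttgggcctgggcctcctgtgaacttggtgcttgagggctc
Fgr, chr4:132973845-132974094, plus strand: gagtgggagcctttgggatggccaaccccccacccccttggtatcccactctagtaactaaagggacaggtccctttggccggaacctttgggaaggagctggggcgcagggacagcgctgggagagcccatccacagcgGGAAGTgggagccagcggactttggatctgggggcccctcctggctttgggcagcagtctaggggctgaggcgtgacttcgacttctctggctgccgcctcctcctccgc

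Lyn, Yes1 and Src stayed near background on all 7 arrays, so none of them was tested and no fold is given. The faintest probes that were well above background had intensities of 11.0 to 21.4 on Lck-off arrays and 13.6 to 18.5 on WT arrays. Lyn, the Src kinase of B cells and myeloid cells, read 4.26, 2.84, 2.79 and 4.20 in Lck-off, against 3.46, 3.70 and 2.92 in WT. Its values overlapped and lay under the faintest detected probe on every array. Yes1, a widely expressed Src kinase, read 5.02, 3.64, 3.55 and 4.93 in Lck-off, against 4.51, 4.43 and 3.71 in WT, again overlapping. Src itself read 9.90, 9.87, 12.1 and 6.89 in Lck-off, against 5.64, 4.12 and 4.71 in WT. The Src values of Lck-off all lay above those of WT, but below the detection limit of their own arrays, so that they set only a bound. The Src probe, at chr2:157293336-157294267 on the plus strand, spans an intron, while those of Lyn (chr4:3718682-3718741) and Yes1 (chr5:32988496-32988555) each lie in 1 block.

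Csk, the kinase that phosphorylates the inhibitory tail tyrosine of the family, was measured at chr9:57474734-57474793 on the minus strand. It read 2.36, 2.55, 2.18 and 2.20 in Lck-off, against 2.08, 2.17 and 2.45 in WT. The groups overlapped over most of their range. The difference of 0.09 (SE 0.13, 95% confidence interval -0.22 to 0.39) did not pass the test (adjusted p = 0.784 by limma; p = 0.457 by exact permutation, two-sided). Csk RNA in Lck-off thus lay between 86.1% and 131% of the WT level.

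Ptprc, which encodes the phosphatase CD45, was measured at chr1:139961083-139961142 on the minus strand. It read 5.40, 5.60, 5.75 and 5.97 in Lck-off, against 5.75, 5.33 and 5.81 in WT. Both the highest array and the second lowest were Lck-off arrays, so the groups were mixed. The difference was 0.05 (SE 0.17, 95% confidence interval -0.34 to 0.45) and did not pass the test (adjusted p = 0.915 by limma; p = 0.771 by exact permutation, two-sided). Ptprc was the noisiest of the measured genes, with a pooled SD of 0.25 that exceeded those of 71.9% of probes, and its interval of 78.8% to 137% of the WT level covers changes in both directions.

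Pag1, the adaptor that binds Csk, rose in Lck-off cells. Its probe lay on the minus strand at chr3:9692525-9692584, starting at base 3091 of the transcript, and its last 30 bases show the stretch that was read.
Pag1: gactttcactgatgtctagtgacccctcta

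The intensities were 47.0, 38.5, 56.6 and 55.6 in Lck-off, against 29.5, 31.0 and 34.9 in WT. The log2 levels were -2.23, -2.46, -2.10 and -2.06 in Lck-off, against -2.82, -2.76 and -2.75 in WT. All Lck-off arrays lay above all WT arrays, with Lck-off replicate 2 the nearest to WT. The groups were likewise apart for 20.8% of all probes measured, in either direction. Pag1 averaged -2.22 ± 0.18 in Lck-off and -2.78 ± 0.04 in WT, a level 1.47-fold that of WT (95% confidence interval 1.23 to 1.76). The difference was 0.56 (SE 0.11, adjusted p = 0.0241 by limma; p = 0.0571 by exact permutation, two-sided, with 2 of 35 splits as large), and 4.99% of probes rose by as much in value. The call held without Lck-off replicate 2 (0.64, adjusted p = 0.0103) and was lost without any 1 of the other 6 arrays (adjusted p between 0.0523 and 0.0814). Pag1 differed by 0.47 on slide row 1 and by 0.64 on slide row 2. The call was also lost with normexp correction (0.20, adjusted p = 0.124) and in the authors' deposited value table (0.19, adjusted p = 0.201). Taken within each array, Pag1 changed by 0.51 relative to Ptprc with no overlap (exact permutation, two-sided, p = 0.0286, adjusted p = 0.05 over the 7 pairs) and by 0.47 relative to Csk with overlap (exact permutation, two-sided, p = 0.114, adjusted p = 0.133). These changes were 0.15 relative to Ptprc, both with normexp correction and in the authors' deposited value table, and 0.12 and 0.11 relative to Csk.

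**Figure D3:**
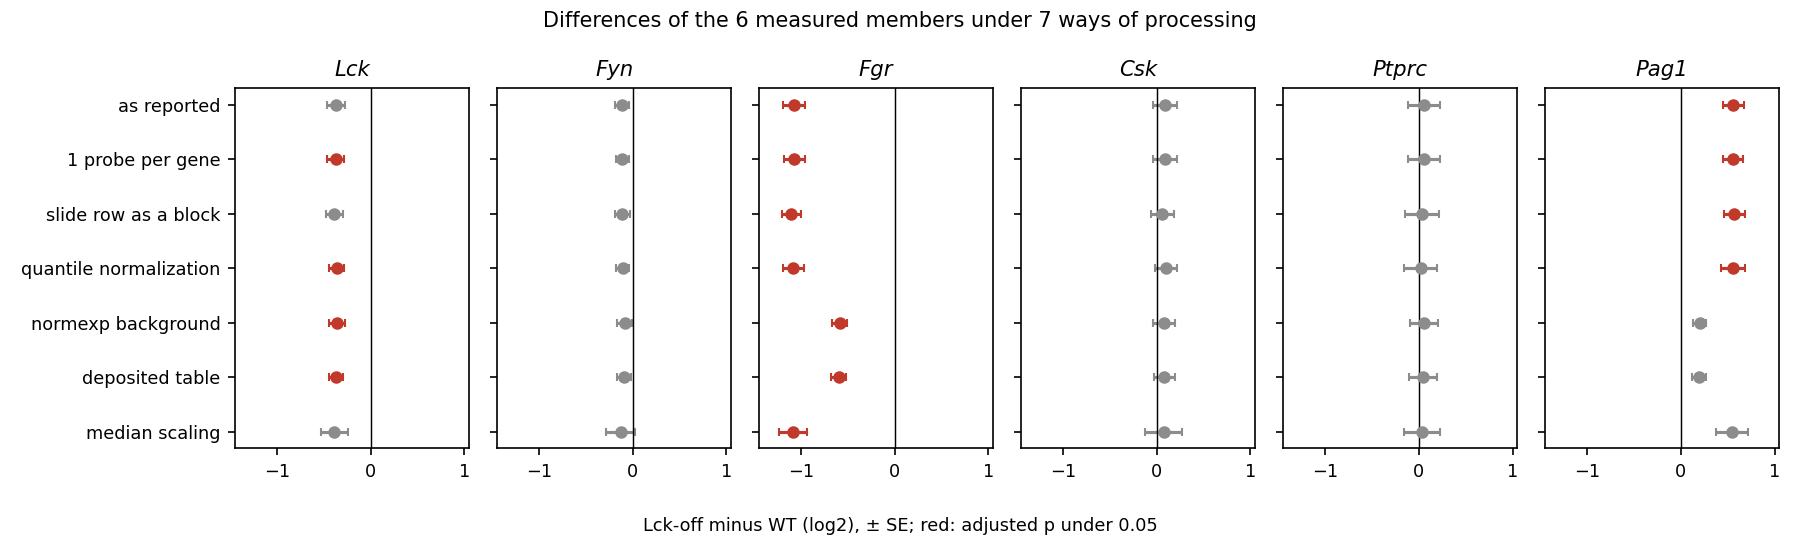
Difference between Lck-off and WT (log2, horizontal) ± SE for the 6 measured genes under 7 ways of processing the arrays (vertical), with values called at an adjusted p under 0.05 in red. Fgr is red in all 7 but is smaller with normexp correction and in the deposited table. Pag1 is red in 4, Lck in 4, and Fyn, Csk and Ptprc in none.

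Genes around the set were read from 5 lists drawn from knowledge of the pathway, each gene by its brightest probe. The lists were chosen with earlier results of these data known, so the share called in them is no independent support. Of 63 genes measured, 11 were called, 3 higher and 8 lower in Lck-off (17.5%), where 7.72% of all genes measured by their brightest probe were called (3.54% higher and 4.18% lower). The count was 8, 10, 7 and 7 without Lck-off replicate 1, 2, 3 and 4. It was 6, 8 and 6 without WT replicate 1, 2 and 3. Over all probes, 1874 were called with all arrays, and between 1133 and 1678 without 1 array.

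Among 6 further kinases of the family or related to it, 3 were measured. Matk, which encodes the Csk-homologous kinase, the only close relative of Csk, fell by 0.89 (SE 0.13, adjusted p = 0.00733 by limma). Its levels were 4.07, 4.23, 3.94 and 3.91 in Lck-off, against 5.04, 5.05 and 4.67 in WT, with no overlap. The Matk call held in all 7 repeats without 1 array. Relative to Csk on the same array Matk changed by -0.97 (exact permutation, two-sided, p = 0.0286, adjusted p = 0.05 over the 7 pairs), a pair added after its value was seen, and this change was -0.50 on slide row 1 and -1.21 on slide row 2. The kinase gene Srms had a difference of 0.13 (adjusted p = 0.923 by limma) with overlapping groups.

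Among 11 phosphatases that act on Src kinases or on their partners, all were measured and only Ptpn6 was called. Ptpn6, which encodes SHP-1, read 5.53, 5.56, 5.33 and 5.31 in Lck-off, against 6.01, 5.94 and 6.40 in WT. It fell by 0.68 (SE 0.13, adjusted p = 0.0239 by limma), with no overlap, and was called in 3 of 7 repeats without 1 array (Lck-off replicate 1 or 2, or WT replicate 2), with an adjusted p between 0.0406 and 0.0737 over the 7. Ptpre, a receptor phosphatase, differed by 0.33 (adjusted p = 0.0671) and Ptpn2, which encodes TC-PTP, by -0.28 (adjusted p = 0.0917), neither called by limma. Dusp22, a small phosphatase that acts on Lck, differed by -0.46 with overlapping groups (adjusted p = 0.255 by limma). The median over the phosphatases was -0.12, beside -0.01 over all genes.

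Of 20 adaptors, chaperones and ubiquitin ligases of the Src kinases or Csk, 19 were measured, 2 rose and 1 fell, with a median of -0.01. Prr7, a transmembrane adaptor that binds Src kinases, read 1.15, 0.63, 0.87 and 0.90 in Lck-off, against 1.64, 1.78 and 2.22 in WT. It fell by 1.00 on the log2 scale (SE 0.17, adjusted p = 0.0151 by limma) and was called in all 7 repeats without 1 array. Sit1, an inhibitory transmembrane adaptor, rose by 0.41 (SE 0.08, adjusted p = 0.0234 by limma), with 5.25 ± 0.08 in Lck-off and 4.84 ± 0.08 in WT. Lpxn, which encodes the paxillin relative leupaxin, rose by 0.39 (SE 0.09, adjusted p = 0.0456 by limma), with 4.13 ± 0.09 in Lck-off and 3.73 ± 0.12 in WT. In the 7 repeats without 1 array, Sit1 was called in 2 (without Lck-off replicate 2 or 3; adjusted p between 0.0463 and 0.0829) and Lpxn in 0 (adjusted p between 0.0527 and 0.129). Socs6, an adaptor of a ubiquitin ligase, differed by -0.37 with overlapping groups (adjusted p = 0.279 by limma).

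**Figure D4:**
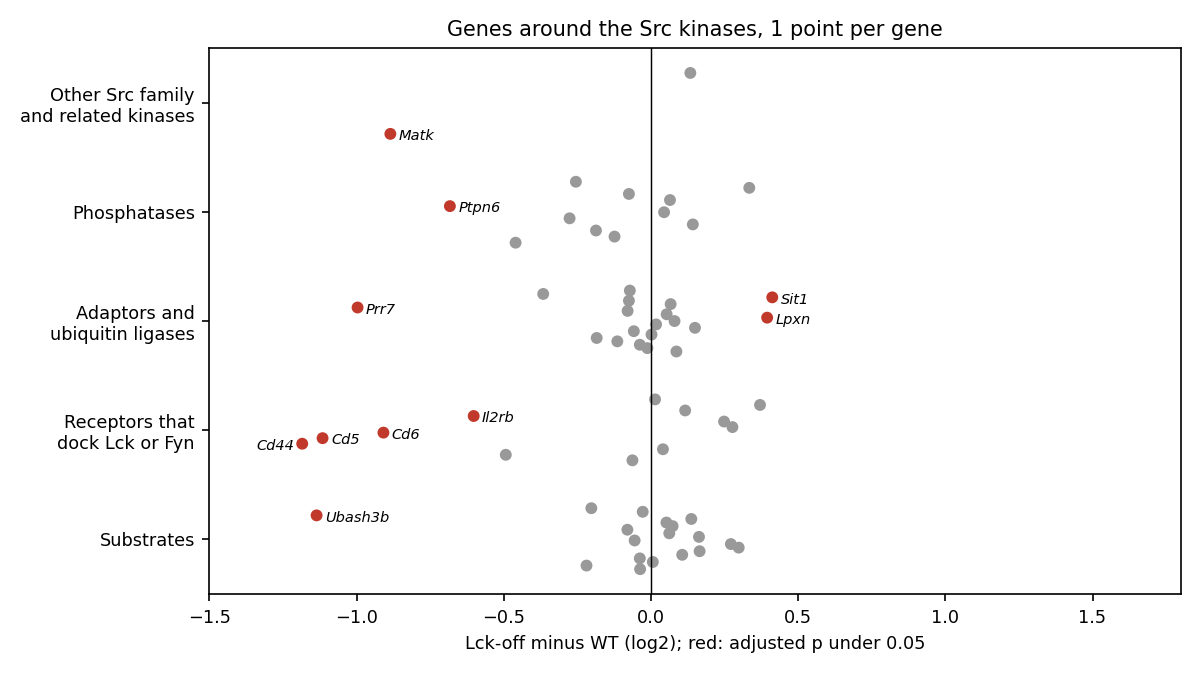
Difference between Lck-off and WT (log2, horizontal) for the 62 genes of the 5 lists that were well above background on at least 1 array of each group (vertical), 1 point per gene at its brightest probe. The 10 genes with an adjusted p under 0.05 are red and named: 8 lie below 0 and 2 above it.

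Of 12 surface receptors and partners that dock Lck or Fyn, all were measured, 4 fell and 0 rose, with a median of -0.02. Cd5, an inhibitory receptor, averaged 6.17 ± 0.08 in Lck-off and 7.28 ± 0.03 in WT, and its relative Cd6 6.76 ± 0.08 in Lck-off and 7.67 ± 0.01 in WT; both were called in all 7 repeats without 1 array. Cd44, the adhesion receptor on which the cells had been sorted, read -2.02, -1.36, -2.17 and -1.96 in Lck-off, against -0.78, -0.54 and -0.75 in WT. Cd44 averaged -1.87 ± 0.36 in Lck-off and -0.69 ± 0.13 in WT (adjusted p = 0.012 by limma), lost its call without WT replicate 2 (adjusted p = 0.0527), and its difference was -0.71 with normexp correction. Il2rb, a receptor chain for IL-2 and IL-15, fell by 0.60 (SE 0.12, adjusted p = 0.0223 by limma) and was called in 2 of 7 repeats without 1 array (Lck-off replicate 2 or WT replicate 2), with an adjusted p between 0.0248 and 0.0693. The coreceptor genes Cd8a and Cd8b1, named here after their values were seen, differed by 0.28 (adjusted p = 0.164 by limma) and 0.25 (adjusted p = 0.0817), not called although neither overlapped between groups. A second, dimmer probe of Cd8a differed by 0.48, so the size for Cd8a depended on the probe. Groups did not overlap for 21.8% of all genes.

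Of 19 substrates and partners of Lck and Fyn in the T cell receptor pathway, 18 were measured and only Ubash3b was called. It encodes a phosphatase that restrains the receptor, so the list's name does not describe what it does. Ubash3b read 2.44, 2.14, 2.17 and 1.88 in Lck-off, against 3.30, 3.40 and 3.17 in WT. It fell by 1.14 (SE 0.14, adjusted p = 0.00366 by limma), with no overlap, and its second probe by a value of -1.35. The scaffold Lat, a substrate in the usual sense, differed by 0.27 (adjusted p = 0.0599) and the adaptor Fyb by 0.16 (adjusted p = 0.232), neither called by limma. The list median was 0.03.

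The genes whose pattern over the 7 arrays was nearest to each of 3 genes of the set were found among 18224 others, by the root mean square difference of levels centred on their mean. For Lck they were Kptn (0.03 log2 units), Mif (0.04) and Telo2 (0.04). For Fgr they were Npas4 (0.08), Cep76 (0.08) and a probe with no gene symbol (0.09). For Pag1 they were Gm6571 (0.05), H2-Q10 (0.05) and Rbl1 (0.06).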

How the data were processed

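The members and the gene lists were chosen with earlier results of these data known. Per the file headers, Feature Extraction 10.7.3.1 gave the authors, for each 1-colour (Cy3) spot with its position on mm9, a processed intensity that is background subtracted and detrended within the array. Mean and local background intensities, uncorrected, and yes-or-no flags for detection, saturation and uniformity come from the same deposited files. The values that the authors deposited as a table are taken as log2 from their range; limma is named in the submitters' processing notes, with no version.

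Non-uniform spots were set to missing, intensities were put on a log2 scale relative to the 75th percentile of each array over non-control spots, and spots of a probe were averaged. The 25578 of 55681 probes that were well above background in 3 or more of 7 arrays were fitted with limma 3.58.1 in R 4.3.3 (moderated, two-sided, Benjamini-Hochberg over all of them). The fit was also run on simulated data with independent noise and planted shifts larger than the differences of Lck and Pag1. That run checks the code and does not bear on the calls made here. Exact permutation used all 35 splits of the arrays for the 6 measured genes and for 7 pairs chosen after values were seen, and these p-values are unadjusted unless said otherwise. A planned comparison between probes of the same gene had no data, since each gene has 1 probe. The number of arrays limits the precision; the median SE was 0.12. Named list genes are the 4 of smallest adjusted p in each list; some of these and some markers are not reported here by name. All arrays were on 1 slide and scanned together, with Lck-off replicates 2 and 3 and WT replicate 3 in row 1 and the others in row 2. Alternatives were other background corrections, scalings, filters and moderation, weighted arrays, a replicate block, a slide row block, each row alone, and each array left out.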

Additional observations from a re-analysis of the deposited data

How the results depend on the processing

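Fgr was lower in every setting run, and was called in all except within slide row 1 (-0.96, adjusted p = 0.205) and row 2 (-1.20, adjusted p = 0.118), fits of fewer arrays; without 1 array it lay between -1.15 and -0.99. Fyn, Csk and Ptprc were called in no setting. Lck was called with the 75th percentile taken over probes detected on all arrays (-0.38), array weights (-0.40), 1 probe or the mean of probes per gene (-0.37 each), the deposited table (-0.37), normexp (-0.36), detection required on all 7 arrays (-0.37), quantile normalization (-0.36) and trended robust moderation (-0.37); without 1 array it lay between -0.44 and -0.34. Pag1 was not called with the deposited table (0.19), normexp (0.20), median scaling (0.54), no filter on dim probes (0.56), trended robust moderation (0.56), row 1 alone (0.47) or row 2 alone (0.64), and lay between 0.51 and 0.64 without 1 array. Under median scaling, no filter, row 1 alone and row 2 alone, the probes called numbered 1086 (544 higher, 542 lower), 712 (372, 340), 89 (78, 11) and 10 (8, 2), the genes of the set 1, 1, 0 and 0, and the list genes 6, 4, 0 and 0; trended robust moderation gave 17 list genes. Without 1 array, probes called numbered 1133 to 1678 (576 to 802 higher, 538 to 876 lower), genes of the set 1 to 3, and list genes 6 to 10. Same-numbered samples of the 2 groups had correlations of deviations of 0.15, 0.05 and -0.01, so the numbers were not taken to pair them; with a replicate block, Pag1 was 0.51 (adjusted p = 0.165), Fgr -1.07 (adjusted p = 0.0494), and 366 probes (200 higher, 166 lower), 1 gene of the set and 4 list genes were called. The causes of these shifts were not tested. The fits of 1 row alone and those without 1 array also had fewer arrays. Fgr and Pag1 lie near background, which limits how well their sizes are known.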
